A study of Mus musculus with 6 samples.

Results

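The miR-183 cluster consists of mmu-miR-183, mmu-miR-96 and mmu-miR-182, microRNAs (miRNAs) whose hairpins lie close together on the minus strand of mouse chromosome 6 and are processed from a shared primary transcript. A miRNA guides the RNA-induced silencing complex to messenger RNAs that pair with its seed, the bases at positions 2 to 8 from its 5′ end. The cluster is best known from sensory organs. It is abundant in hair cells of the inner ear and in photoreceptors, and changes in the miR-96 seed cause progressive hearing loss in mice and in humans. The members were found by name, as every mature strand of these miRNAs in the deposited table, and not by their values. This gave 3 of the 535 mature miRNAs in the table, which were miR-183-5p, miR-96-5p and miR-182-5p, and all 3 were among the 525 tested. Each has a single row in the table, so that none of their counts had to be chosen among several precursors. The 3p strands were not analysed here.

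Small RNA was sequenced from wild-type CD1 mouse kidneys at embryonic day 15.5 in 3 libraries of kidney mesenchyme enriched in nephron progenitors (MNP) and 3 libraries of whole kidney (MWK), with the replicates collected from 3 litters. Nephron progenitors, the cells that form the epithelia of the nephron, were left after antibodies on magnetic beads against CD140a, CD105, Epcam and Ter119 had removed stromal, endothelial, epithelial and erythroid cells, and some stroma is known to pass this selection. The whole kidney samples were kidneys that remained from the digestion step, and per the methods their RNA was purified with a different kit, so the kit cannot be told apart from the cell population. Counts on known miRNAs, with a single value per mature miRNA, were 393951, 436112 and 333850 in MNP1, MNP2 and MNP6, against 349241, 360221 and 355848 in MWK1, MWK2 and MWK6. No sample carries the number 6, so these columns served as libraries of their group with no replicate number. Six2 and Cited1, the messenger RNAs that mark nephron progenitors, are outside a table of miRNAs, so here the label of this group was compared only with miRNAs of the other cell types.

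In the deposited table, which uses mm10, mir-183 lies at chr6:30169668-30169737, mir-96 at chr6:30169446-30169551 and mir-182 at chr6:30165918-30165992. RefSeq places the same hairpins at the same positions in GRCm38.p6. Read along the minus strand, mir-183 comes first, mir-96 follows after 116 bases and mir-182 after a further 3453 bases, and the whole stretch covers 3820 bases. All of it lies within the span of the long noncoding RNA gene Mirc35hg (30158640 to 30174125, minus strand) of RefSeq, whose exons were not resolved here. In GENCODE M21 the hairpins overlap no gene other than their own. The nearest genes there are the noncoding Rncr4 (30172893 to 30175126, plus strand) and Nrf1, a transcription factor gene that ends at 30153458. The table holds 0 other precursors within 50 kb.

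**Figure D1:**
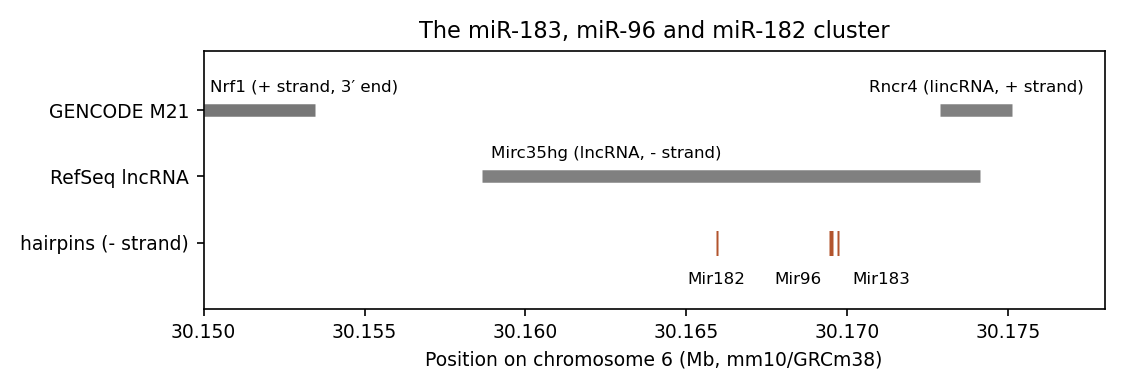
Map of the cluster to scale on chromosome 6 (position in Mb, mm10/GRCm38), with the 3 hairpins in orange, the RefSeq gene Mirc35hg and the GENCODE genes Nrf1 and Rncr4 in grey. The hairpins of Mir96 and Mir183 are 116 bases apart, while Mir182 lies 3453 bases away from Mir96.

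The mature strands are shown because their seeds, where targets are recognised, differ at 1 or 2 of 7 bases. They are written 5′ to 3′ from RefSeq, with the seed in capitals:

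miR-183-5p: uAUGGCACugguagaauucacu
miR-96-5p: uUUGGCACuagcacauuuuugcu
miR-182-5p: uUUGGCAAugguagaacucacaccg

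The 3 seeds are all different. Counted from the 5′ end, miR-183-5p and miR-96-5p differ in the seed only by A2U, miR-96-5p and miR-182-5p only by C8A, and miR-183-5p and miR-182-5p by both. The order of likeness changes over the whole strand. Without gaps, miR-183-5p and miR-182-5p are identical at 18 of 22 positions (81.8%), against 13 of 22 (59.1%) for miR-183-5p and miR-96-5p and 12 of 23 (52.2%) for miR-96-5p and miR-182-5p. All 3 seeds hold the run UGGCA. Of the 535 mature names, 440 matched a RefSeq sequence, and 4 of these 440 hold UGGCA in the seed, namely the 3 members and miR-221-5p, which was singled out only after its sequence was seen. miR-1271-5p, which has the seed of miR-96-5p, was not analysed here.

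The hairpins, in the order in which they are transcribed, carry the measured 5p strand (capitals) on the left arm:

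mir-183: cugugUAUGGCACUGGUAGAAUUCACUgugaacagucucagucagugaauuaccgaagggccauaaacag
mir-96: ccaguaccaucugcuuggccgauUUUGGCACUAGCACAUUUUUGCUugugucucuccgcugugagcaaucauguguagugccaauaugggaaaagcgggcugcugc
mir-182: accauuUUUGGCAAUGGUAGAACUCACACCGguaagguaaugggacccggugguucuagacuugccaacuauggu

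The cluster stayed well expressed in nephron progenitors. Summed over its 3 strands it reached 67.3% of the whole kidney level, and miR-96-5p and miR-182-5p were lower past the threshold while miR-183-5p was not. Levels are given in CPM, the usual counts relative to library size, here after edgeR's TMM scaling. The strands are 22, 23 and 25 bases long. Whether counts of different sequences follow their abundance was not tested, so the order of the members and their shares describe counts. All 525 miRNAs were fitted together in edgeR (quasi-likelihood F test), with a threshold of 0.05 on the Benjamini-Hochberg adjusted p. In these bulk samples, fewer cells that make a miRNA and less of it in each cell cannot be told apart.

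miR-183-5p, the first member and the one with the most counts, had 1951, 2115 and 1113 counts in MNP1, MNP2 and MNP6, against 1575, 1807 and 2261 in MWK1, MWK2 and MWK6. This corresponds to 4803, 4607 and 2925 CPM in the nephron progenitor libraries and 4736, 5689.9 and 6599.7 CPM in the whole kidney libraries. The groups overlapped, since MNP1 lay above MWK1. Nephron progenitors averaged 4112 ± 1033 CPM, and whole kidney had 5675 ± 932 CPM (SD over 3 libraries), a log2 fold change of -0.46 (standard error, SE, 0.20; edgeR adjusted p 0.095). The interval of this difference, at 95% and not adjusted for the number of miRNAs, ran from -0.90 to -0.03, that is, from 53.6% to 98.0% of the whole kidney level. Leaving out a library moved this value both ways, to -0.59 without MNP1 (adjusted p 0.014), -0.31 without MNP6 (0.15) and -0.34 without MWK6 (0.32). In the 4 numbered libraries it was -0.18 (adjusted p 0.32), or -0.17 with the number as a block (0.39).

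miR-182-5p, the last member, had 1027, 1070 and 583 counts in MNP1, MNP2 and MNP6, against 987, 1145 and 1364 in MWK1, MWK2 and MWK6. Its levels were 2529, 2331 and 1532 CPM in nephron progenitors and 2968, 3605 and 3981 CPM in whole kidney. Each nephron progenitor library lay below each whole kidney library, though MNP1 and MWK1 were close. The means of 2131 ± 528 CPM and 3518 ± 512 CPM (SD over 3 libraries) gave a log2 fold change of -0.72 (SE 0.20, 95% interval -1.16 to -0.28, edgeR adjusted p 0.013). The call rested in part on MWK6, the highest whole kidney library. Without it the log2 fold change was -0.62 with an adjusted p of 0.072. In the 4 numbered libraries alone it was -0.46, with an adjusted p of 0.058, or 0.076 with the number as a block.

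miR-96-5p, the middle hairpin, had far fewer counts, with 80, 74 and 33 counts in MNP1, MNP2 and MNP6, against 92, 96 and 109 in MWK1, MWK2 and MWK6. Its levels were 197, 161 and 86.7 CPM in nephron progenitors and 277, 302 and 318 CPM in whole kidney. The groups did not overlap, and the whole kidney libraries were close to each other. The means were 148 ± 56.2 CPM and 299 ± 20.9 CPM (SD over 3 libraries), with a log2 fold change of -1.01 (SE 0.28, 95% interval -1.60 to -0.41, edgeR adjusted p 0.011). In mean CPM, the nephron progenitor level was 49.6% of whole kidney for miR-96-5p, 60.6% for miR-182-5p and 72.5% for miR-183-5p.

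These calls have to be read against the whole table. Of the 525 miRNAs, 192 (36.6%) passed the threshold, 90 of them (17.1%) lower in nephron progenitors, and 245 (46.7%) had groups that did not overlap in CPM. Of the 3 members, 2 passed the threshold, both lower, and the same 2 had groups that did not overlap, so that neither count sets the cluster apart in a table where such calls are frequent. By the size of p the members ranked 140 (miR-96-5p), 144 (miR-182-5p) and 212 (miR-183-5p) of 525. The median log2 fold change of the 3 strands was -0.72, beside -0.01 over all miRNAs tested.

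**Figure D2:**
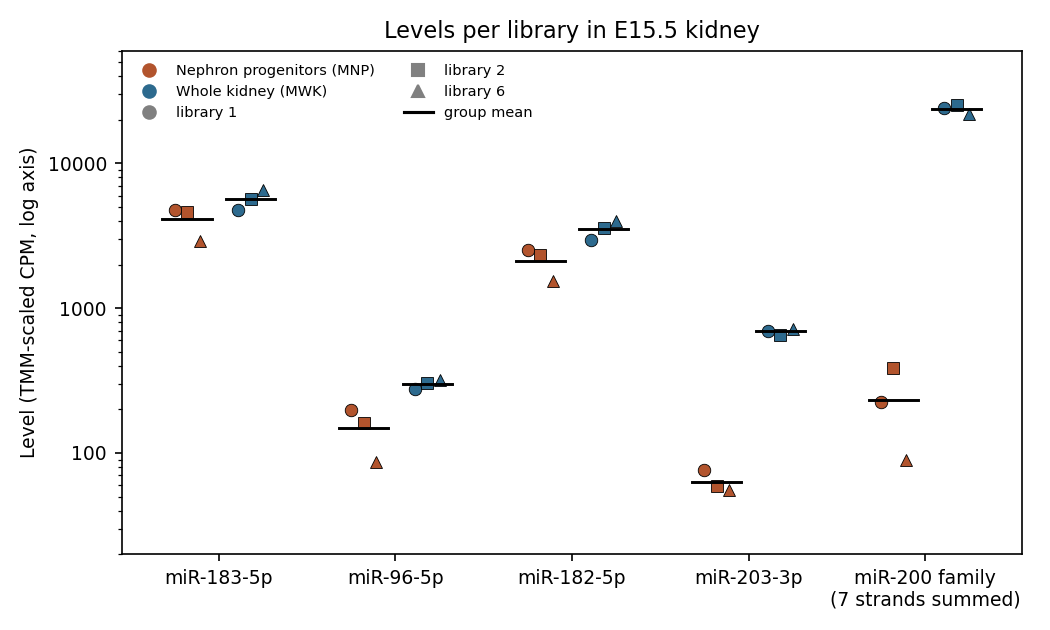
Level in each library (CPM scaled by TMM, log axis) of the 3 cluster strands, miR-203-3p and the sum of 7 miR-200 family strands, for nephron progenitors (orange) and whole kidney (blue), with marker shapes for the library number and black bars for the mean of 3 libraries. The 3 cluster strands are at 49.6% to 72.5% of their whole kidney mean in nephron progenitors, while the miR-200 family is at 0.985%.

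Within the miRNA profile, miR-183-5p ranked 38th of 525 by CPM in nephron progenitors and the 30th in whole kidney, miR-182-5p the 55th and the 42nd, and miR-96-5p the 183rd and the 157th. In all 6 libraries the order of levels was miR-183-5p, then miR-182-5p, then miR-96-5p. The ranges of neighbours in this order touched in neither group. For these strands nephron progenitor libraries varied more than whole kidney libraries. The coefficient of variation in nephron progenitors was 25.1% for miR-183-5p, 24.8% for miR-182-5p and 37.9% for miR-96-5p, beside a median of 19.2% over the 260 miRNAs with more than 10 counts in every library. In whole kidney it was 16.4%, 14.6% and 7.005% in the same order, beside a median of 11.7%.

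Summed over its 3 strands, the cluster was at 7529, 7099.6 and 4544 CPM in MNP1, MNP2 and MNP6, against 7981, 9598 and 10899 CPM in MWK1, MWK2 and MWK6. Each nephron progenitor library lay below each whole kidney library, and the gap between MNP1 and MWK1 was small. The means were 6391 ± 1614 and 9493 ± 1462 CPM (SD over 3 libraries). The separation depends on the scaling between libraries, and was lost with plain library totals but kept with DESeq2 size factors (log2 difference -0.59 with TMM, -0.57 with size factors and -0.39 with totals). As a plain share of the tested counts the cluster took 0.776%, 0.747% and 0.518% in nephron progenitors and 0.760%, 0.846% and 1.05% in whole kidney, so that MNP1 lay above MWK1 and the groups overlapped. With library totals in place of TMM the median log2 fold change of all miRNAs shifted by 0.20. Relative to that median the members were at -0.46 (miR-183-5p), -0.72 (miR-182-5p) and -1.004 (miR-96-5p), close to their values under TMM. A change of scaling shifts all miRNAs almost equally, so this closeness was fixed in advance. Without the median taken off, the members were at -0.27 (edgeR adjusted p 0.32), -0.53 (0.047) and -0.82 (0.030) under totals, in the same order.

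MNP6 was the lowest library for all 3 members. Against the whole kidney mean, the summed cluster was at 79.3% in MNP1, 74.8% in MNP2 and 47.9% in MNP6. Without MNP6 the log2 fold changes were -0.31 for miR-183-5p, -0.57 for miR-182-5p and -0.78 for miR-96-5p, and the latter 2 stayed past the threshold (adjusted p = 0.016 and 0.014 from edgeR).

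Ratios between members can be read inside each library without any scaling. The 95% intervals of the members' log2 fold changes overlap. These intervals ignore that the members share their libraries, so the overlap does not show whether they fell alike. In the exact permutation used for the ratios below, no difference could pass the threshold with 3 libraries a group. For every 100 counts of miR-183-5p there were 52.6, 50.6 and 52.4 counts of miR-182-5p in MNP1, MNP2 and MNP6, against 62.7, 63.4 and 60.3 in MWK1, MWK2 and MWK6. The ratio was nearly constant within each group, also in MNP6 with its low total. It averaged 51.9 ± 1.12 in nephron progenitors, against 62.1 ± 1.59 for whole kidney (SD over 3 libraries), a log2 difference of -0.26. The counting error of a single library is larger than this spread, with a 95% exact binomial interval of 47.3 to 58.0 in MNP6 and of 56.4 to 64.5 in MWK6. Such intervals cover counting error only, since reads without molecular identifiers are not independent molecules.

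Ratios with miR-96-5p had the lower values in nephron progenitors as well. Per 100 counts of miR-183-5p there were 4.10, 3.50 and 2.96 counts of miR-96-5p in MNP1, MNP2 and MNP6, against 5.84, 5.31 and 4.82 in MWK1, MWK2 and MWK6, a difference of -0.60 between the groups in mean log2 ratio. Per 100 counts of miR-182-5p there were 7.79, 6.92 and 5.66 in nephron progenitors and 9.32, 8.38 and 7.99 in whole kidney, a difference of -0.34 on the same scale. This value hung on single libraries, being -0.22 without MNP6 and -0.45 without MNP1. For the latter ratio MNP1 and MWK6 were close, and their 95% binomial intervals of 6.13 to 9.79 and 6.51 to 9.72 overlapped widely. For each of the 3 ratios the groups did not overlap (p = 0.1 in a two-sided exact permutation for each, which is the least that 6 libraries can give). Such a separation is common in these data. It was seen for 61.3% of the 33670 pairs that can be made of the 260 miRNAs with more than 10 counts in every library. It was also seen for 79 of 181 pairs (43.6%) of other miRNAs with a single row each whose precursors lie within 10 kb of each other on a strand.

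**Figure D3:**
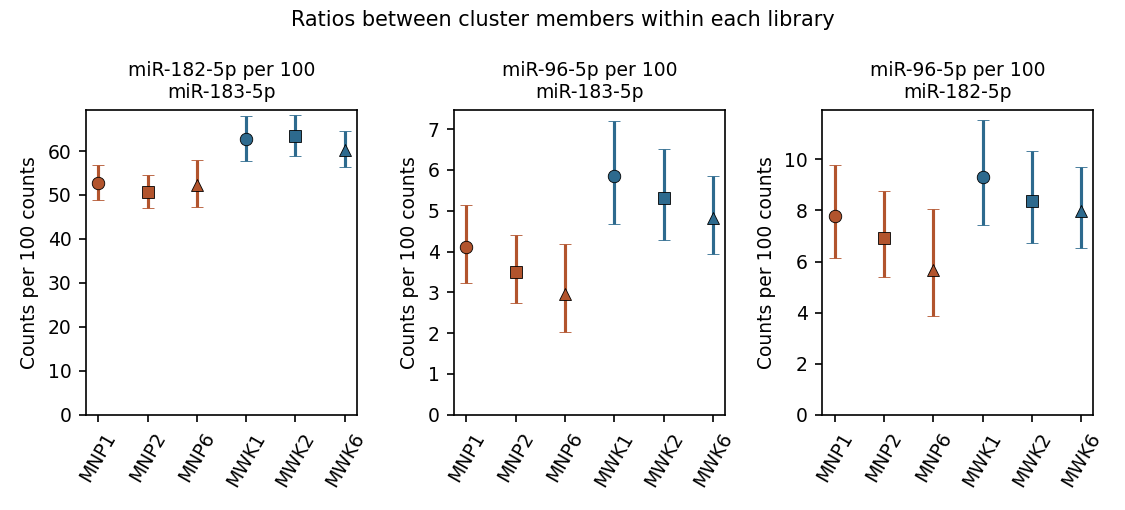
Ratio of counts between cluster members in each library, as counts of the first miRNA per 100 counts of the second, for nephron progenitors (orange) and whole kidney (blue), with 95% exact binomial intervals for counting error. In each panel the 3 nephron progenitor libraries lie below the 3 whole kidney libraries, most tightly for miR-182-5p per 100 miR-183-5p (51.9 ± 1.12 against 62.1 ± 1.59).

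In nephron progenitors miR-183-5p made up 64.4% ± 0.549 of the cluster's counts, where in whole kidney it made up 59.7% ± 0.715 (SD over 3 libraries). miR-182-5p held 33.4% ± 0.478 and 37.1% ± 0.525, and miR-96-5p 2.27% ± 0.354 and 3.18% ± 0.275, in the same order.

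The cluster was set beside miRNAs that mark epithelia, because it is often grouped with them. The list held miR-141, miR-429 and the a, b and c forms of miR-200, which make up the miR-200 family. It also held miR-203 and miR-205, which are typical of epithelial cells. Each of its 9 strands passed the threshold with its lower level in nephron progenitors, with a median log2 fold change of -6.46, or -5.50 with the 2 strands that had no counts in nephron progenitors set at their bound. These were miR-200b-5p (at least 13.9-fold lower) and miR-141-3p (at least 4.61-fold lower), with the bound computed from 3 counts per library. The most abundant strand, miR-200a-3p, had 41, 80 and 15 counts in MNP1, MNP2 and MNP6, against 4278, 4248 and 3796 in MWK1, MWK2 and MWK6. miR-203-3p, a miRNA of stratified epithelia, had 31, 27 and 21 counts against 233, 208 and 248, a log2 fold change of -3.44 (SE 0.23, edgeR adjusted p 8.3e-08). miR-205-5p had 1, 3 and 2 counts against 67, 80 and 83.

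The sum of the 7 strands of the miR-200 family was 227, 386 and 89.3 CPM in MNP1, MNP2 and MNP6, against 23975, 25414 and 21834 CPM in MWK1, MWK2 and MWK6. The nephron progenitor mean was 0.985% of the whole kidney mean, against 67.3% for the miR-183 cluster. Within a library, the cluster held 33.2, 18.4 and 50.9 counts for each count of the miR-200 family in nephron progenitors. In whole kidney it held 0.333, 0.378 and 0.499. The ratio was thus far higher in every nephron progenitor library than in any whole kidney library, with a log2 difference of 6.31 between the groups (p = 0.1 in a two-sided exact permutation). Most of it came from the miR-200 sum, which differed by -6.90 in log2, against -0.59 for the cluster. Epithelial cells were removed by design with the antibody against Epcam, so this ratio is not a test of the cluster. Groups also did not overlap for 61.3% of the ratios between 2 single miRNAs. Among the nephron progenitor libraries the 2 sums did not keep the same order. MNP2 had the most miR-200 and MNP1 the most of the cluster, while MNP6 had the least of both.

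Some strands on lists for other cell types also passed the threshold, and the part of those cells in the values of the cluster was not tested. The counts per list below stand beside the 192 of all 525 miRNAs (36.6%) that passed. The median log2 fold change was -1.62 for the endothelial list, -1.31 for the erythroid, -0.44 for the tubule, 0.20 for the stromal and 0.30 for the leukocyte list, beside -0.01 over all miRNAs. The endothelial list (miR-126a, miR-139, miR-221 and miR-222) had 4 of 8 strands lower past the threshold. The other 4, those of miR-221 and miR-222, did not pass and had log2 fold changes of 0.08 to 0.49. The summed list was 889, 1259 and 1361 CPM in MNP1, MNP2 and MNP6, against 21001, 22316 and 18947 CPM in MWK1, MWK2 and MWK6. miR-126a-3p, its most abundant strand, fell from 18825 ± 1589 to 502 ± 91.1 CPM (SD over 3 libraries). MNP6, the lowest nephron progenitor library for the cluster, had the highest sum of this list, mostly through miR-221-3p (123, 204.8 and 258 CPM in MNP1, MNP2 and MNP6) and miR-222-3p (263, 344 and 459.9 CPM). miR-126a-3p was nearly equal in MNP2 (551 CPM) and MNP6 (557 CPM), and miR-126a-5p was lowest in MNP6 (22.2, 43.6 and 21.02 CPM in MNP1, MNP2 and MNP6).

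The erythroid list (miR-451a, miR-144 and miR-486) had 5 of 7 strands lower past the threshold. The 7 strands hold only 5 distinct sets of counts, so the count of strands and the median include repeated counts. With strands of identical counts summed once, it was at 391, 283 and 176 CPM in MNP1, MNP2 and MNP6, against 1495, 1486 and 762 CPM in MWK1, MWK2 and MWK6. MNP6 was the lowest nephron progenitor library here as it was for the cluster, but MWK6, the highest whole kidney library for the cluster, was the lowest here. miR-451a, the most abundant strand, was at 100.2 ± 38.8 CPM on average in nephron progenitors, and whole kidney had 570 ± 177 CPM (SD over 3 libraries).

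The tubule list (miR-192, miR-194, miR-204 and miR-211) had 2 of 5 strands lower past the threshold, and its miR-215 was not analysed here. Its sum was 1009, 1024 and 1293 CPM in nephron progenitors and 3133, 3161 and 2326 CPM in whole kidney. miR-192-5p, its most abundant strand and a miRNA of differentiated tubules, was at 476 ± 35.8 CPM on average in nephron progenitors, and whole kidney had 2057 ± 397 CPM (SD over 3 libraries). The sum was highest in MNP6 through miR-204-5p (313, 349 and 589 CPM in MNP1, MNP2 and MNP6) and miR-211-5p (130.5, 169.9 and 223 CPM), which did not pass, while miR-192-5p was lowest there (515, 468 and 444 CPM). Among whole kidney libraries the sum was lowest in MWK6.

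The stromal list (miR-199a, miR-199b, miR-214, miR-143 and miR-145a) had 1 of 10 strands higher and 2 lower past the threshold. The 10 strands hold 9 distinct sets of counts. Its sum, again with identical counts taken once, was 37322, 49543 and 50329 CPM in nephron progenitors and 76323, 88177 and 73391 CPM in whole kidney, mostly from miR-143-3p. That strand was at 24996 ± 3455 CPM on average in nephron progenitors, and whole kidney had 62790 ± 7301 CPM (SD over 3 libraries), and it is known from smooth muscle and pericytes as well. The strands of miR-199 and miR-214 went the other way, with log2 fold changes of 0.17 to 0.79, of which 1 passed. None of the 10 strands was at 0 in nephron progenitors.

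The leukocyte list (miR-142a, miR-223, miR-150 and miR-155) had 1 of 6 strands past the threshold, miR-223-5p, which was higher. This strand had 4, 8 and 7 counts in MNP1, MNP2 and MNP6, against 0 in each whole kidney library. It met the count filter only through nephron progenitors. The sum of the list was 150, 159 and 84.1 CPM in nephron progenitors and 111, 117 and 73.0 CPM in whole kidney. MNP6 and MWK6 were thus each the lowest of their group. miR-142a-3p, the most abundant strand, did not pass (edgeR adjusted p 0.26). It had a mean of 49.8 ± 29.6 CPM in nephron progenitors, against 30.3 ± 3.56 CPM in whole kidney.

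Likeness of pattern was measured as the Euclidean distance between profiles of log2 CPM (prior count 2) over the 6 libraries, each centred on its own mean. For miR-182-5p the nearest of all other miRNAs was miR-183-5p, at a distance of 0.32, with 0 of the miRNAs outside the cluster nearer. The 5 nearest outside the cluster were miR-15b-5p (0.38), miR-24-3p (0.41), miR-10a-3p (0.42), miR-218-5p (0.44) and miR-6239 (0.44), where the median over all others was 1.53. miR-96-5p was at 0.51, with 8 outside miRNAs nearer.

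For miR-183-5p the nearest outside the cluster were miR-330-5p (0.20), miR-6239 (0.27), miR-106b-5p (0.36), miR-10a-3p (0.39) and miR-98-5p (0.40), and the median over all others was 1.41. miR-330-5p and miR-6239 were nearer to it than miR-182-5p, while 82 outside miRNAs were nearer than miR-96-5p. Of these 8 outside miRNAs, miR-24-3p, which had 1250, 1325 and 740 counts in MNP1, MNP2 and MNP6, against 1354, 1445 and 1295 in MWK1, MWK2 and MWK6, came closest to miR-182-5p in mean CPM. It was at 2636 ± 607 CPM on average in nephron progenitors, and whole kidney had 4134 ± 389 CPM (SD over 3 libraries), a log2 fold change of -0.65 (SE 0.19, edgeR adjusted p 0.016). This call was lost with library totals in place of TMM (-0.45, adjusted p 0.054), without MWK1 (-0.66, 0.066) and without MWK2 (-0.58, 0.076). None of the 8 was on the epithelial list. The distance includes the size of the change, so the far larger changes on that list had fixed this in advance.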

How the data were processed

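Small RNA libraries were trimmed with BBDuk and aligned to mm10 with Bowtie2 (2.2.3 per the processing notes) by the authors, who counted known miRNAs with miRDeep2. They deposited estimated counts per mature miRNA and precursor, not normalized (expected counts, with fractions in 3 of 792 rows), which were rounded here. The fixed design, made with counts in mind, did not have to change. The highest count per mature miRNA and library was used, and a miRNA was tested if its summed count over libraries exceeded 10. Tools were R 4.3.3, edgeR 4.0.16 (TMM, quasi-likelihood test), DESeq2 1.42.0, limma 3.58.1 and matplotlib 3.10.9. Standard errors were derived from F as the size of the change over its root. The steps were tested on simulated data. Members, marker lists and tests were chosen with earlier results of these data known, and the pairs of precursors within 10 kb after seeing the ratios. Named miRNAs were the cluster strands, the 5 nearest profiles of miR-183-5p and of miR-182-5p, the miR-200 family, miR-203, miR-205, the most abundant strand of each list and sharers of a member's seed. Outside this rule, miR-221-3p, miR-222-3p, miR-126a-5p, miR-204-5p and miR-211-5p were named after seeing their values, to describe MNP6. Likewise outside it, miR-223-5p was named as the strand of the leukocyte list past the threshold. At these depths 3 counts, taken as the floor, correspond to 6.54 to 9.45 CPM. Alternatives were other tests, scalings, filters and row handling, and leaving out libraries.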

Additional observations from a re-analysis of the deposited data

How the results depend on the processing

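All 3 strands kept a negative log2 fold change in each of 16 alternatives. miR-96-5p stayed past the threshold in all 16 (-1.25 to -0.73, adjusted p from 0.00092 to 0.046), miR-182-5p in 13 of 16 (-0.86 to -0.46, adjusted p from 0.00087 to 0.076) and miR-183-5p passed it in 1 (-0.59 to -0.17, adjusted p from 0.014 to 0.39). With a library left out, miR-182-5p ranged from -0.86 to -0.57 and miR-183-5p from -0.59 to -0.31, and from 1 to 3 strands of the cluster passed, 1 without MWK6 and 3 without MNP1. In the 4 numbered libraries, 1 strand passed, miR-96-5p, both under a replicate block (-0.73, adjusted p = 0.044 from edgeR) and, again 1 strand, without the block (-0.73, adjusted p = 0.039). miR-182-5p did not pass there, at -0.46 with the replicate block (adjusted p = 0.076) and -0.46 without the block (adjusted p = 0.058). Over all miRNAs the block gave 153 calls against 134 without it. The differences between replicates 1 and 2 of the 2 groups had a correlation of 0.039 across miRNAs, and no label says that a number marks a shared litter, so the numbers were not taken as pairs. Of the 260 miRNAs above 10 counts in every library, 120 passed when only these were fitted (the strict filter, more than 10 counts in every library). With a library left out, the difference in log2 ratio ran from -0.28 to -0.24 for miR-182-5p to miR-183-5p, from -0.72 to -0.49 for miR-96-5p to miR-183-5p and from -0.45 to -0.22 for miR-96-5p to miR-182-5p. The log2 difference in the cluster relative to miR-200 ran from 5.96 (without MNP6) to 6.69 (without MNP2), and it was 5.89 with miR-203 and miR-205 added to miR-200. Summing both strands of a member and using 5p strands only were not run apart, since the table used here has a single strand of each member. The count of miR-96-5p in MNP6 (33) is the thinnest value, and 3 libraries a group cannot give an exact p under 0.1.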
